A study of Danio rerio with 4 samples.

Results

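Examined here were 8 genes linked to the scavenger endothelium of the zebrafish caudal vein, a cell type that was not itself isolated. The genes, stab1, stab2, lyve1b, mrc1a, dab2, gpr182, ifi30 and lgmn, were taken by symbol from the 31947 genes of the deposited count table. Each symbol had a single row, so all 8 genes were found, and all 8 passed the filter on low counts that left 19016 genes for testing. RNA had been sequenced from 2 sorted populations of the tail of zebrafish embryos at 52 hours post fertilisation (hpf), with 2 libraries in each. The group CHT-EC held cells positive for kdrl:mCherry, in which the promoter of a VEGF receptor drives a red reporter in endothelium. The group CHT-HSPC held cells positive for CD41:GFP, in which the promoter of itga2b drives a green reporter in blood stem and progenitor cells and thrombocytes. Both came from the tail, which holds the caudal hematopoietic tissue (CHT), a venous plexus where blood stem cells lodge. The sources used here do not give the strain, whether 1 embryo carried both reporters, or whether replicates came from separate clutches. The p-values therefore reflect the spread among these libraries alone, which may be technical.

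In zebrafish embryos the endothelium of the caudal vein takes up circulating macromolecules, much as the sinusoidal endothelium of the liver does in mammals. Stabilins and related receptors at the surface bind hyaluronan, modified lipoproteins, glycans and other waste. Clathrin adaptors such as Dab2 carry the receptors inward, and lysosomal enzymes such as legumain and the thiol reductase Ifi30 break the cargo down. The receptors mark veins and lymphatics in the zebrafish embryo, whereas in mammals several of them, and the lysosomal enzymes, are also made by macrophages.

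All 8 genes had higher levels in both CHT-EC libraries than in both CHT-HSPC libraries, and 1 of them, stab2, passed the test. Fitted differences ran from 1.79-fold for ifi30 to 11.1-fold for stab2, with a median of 1.92 on the log2 scale beside 0.02 over all 19016 genes tested. Levels are given as CPM (counts relative to the TMM-scaled library total), and the test was edgeR's quasi-likelihood test with Benjamini-Hochberg adjustment over all genes tested and a threshold of 0.05. Of all genes tested, 3.78% were called toward CHT-EC and 0.752% toward CHT-HSPC. The same separation of the 4 libraries, with CHT-EC above, was found in 30.6% of all genes tested, so it is common in this comparison. At an unadjusted p under 0.05, 6 of the 8 genes were higher in CHT-EC, against 14.6% of all genes tested. The 8 genes and all lists below were chosen with earlier results of these data known. Their shares beside those of all genes are therefore description only. The single call was lost without CHT-EC replicate 1, where 0 of the 8 genes and 0.546% of all genes were called higher in CHT-EC, and with library totals in place of TMM factors, where 0 of the 8 genes and 2.48% of all genes were. DESeq2 placed 5 of the 8 genes higher in CHT-EC (stab1, stab2, mrc1a, dab2 and lgmn), where it did so for 10.8% of all genes, and edgeR with no low-count filter placed the same 5 there, with 8.5% of all genes. The count was 2 without CHT-EC replicate 2 (2.82% of all genes) or CHT-HSPC replicate 2 (4.24%), 1 without CHT-HSPC replicate 1 (3.59%) and 1 with the replicate number as a block (4.28%).

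**Figure D1:**
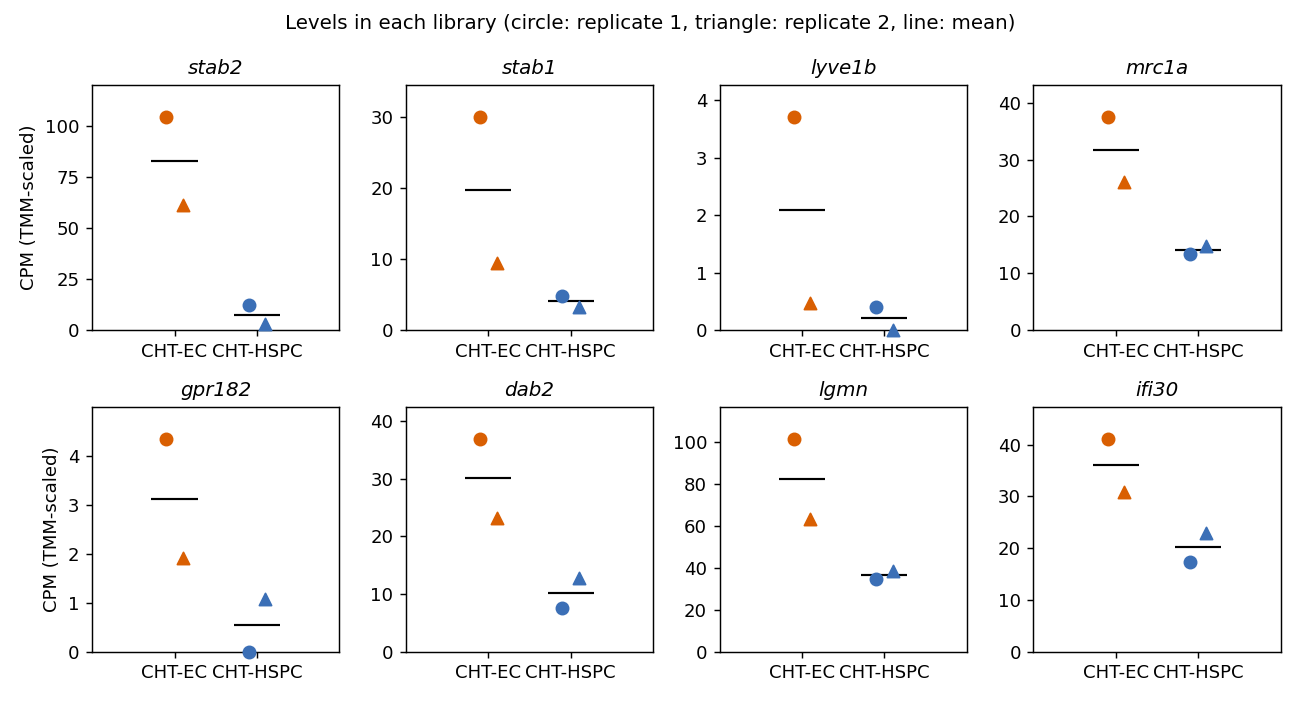
Level of each gene in TMM-scaled CPM (vertical axes, each from 0) in CHT-EC (orange) and CHT-HSPC (blue), with replicate 1 as a circle, replicate 2 as a triangle and a line at the mean of the 2 libraries. In all 8 panels both CHT-EC points lie above both CHT-HSPC points, by a wide margin for stab2 and by 0.476 against 0.404 CPM for lyve1b.

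Markers of other cell types were detected in both sorted populations. Transcripts of 24 endothelial markers took 0.061% and 0.0441% of the counts of CHT-EC replicates 1 and 2, against 0.0378% and 0.0418% of those of CHT-HSPC, with every one of the 24 detected in each library. The most abundant of them was fli1a, an ETS factor of endothelium and blood, at 191 ± 56.7 CPM in CHT-EC against 231 ± 11.1 CPM in CHT-HSPC (SD, n = 2). Gene by gene, 21 of the 24 had a positive difference and the median was 1.98 on the log2 scale, beside 1.92 for the 8 clearance genes. Of the 24, none was called in either direction. At an unadjusted p under 0.05, 12 of the 24 were toward CHT-EC and 1 toward CHT-HSPC. Of all 19016 genes tested, 2783 (14.6%) were toward CHT-EC at that unadjusted p and 1756 toward CHT-HSPC. The gene behind the endothelial reporter, kdrl, had 386 and 100 counts in CHT-EC against 91 and 31 counts in CHT-HSPC, a fitted difference of 4.51-fold with a 95% interval of 1.01 to 20.2 that did not pass the test (adjusted p = 0.208). The gene behind the CD41 reporter, itga2b, had 125 and 274 counts in CHT-EC against 1668 and 3008 counts in CHT-HSPC (log2 difference −3.35, SE 0.46, adjusted p = 0.0158). Among blood markers, 24 macrophage genes took 0.129% and 0.0898% of the counts of CHT-EC against 0.013% and 0.0315% of those of CHT-HSPC, and 13 neutrophil genes took 2.34% and 1.91% in CHT-EC libraries against 0.125% and 0.167% in CHT-HSPC libraries. In both CHT-HSPC libraries the complement genes c1qa, c1qb and c1qc, which define macrophages, were at 0 counts. Another macrophage gene, mpeg1.1, was at 53.0 and 60.6 CPM in CHT-EC libraries against 0.27 and 0.202 CPM in CHT-HSPC libraries. The 2 genes of the macrophage list with the highest mean CPM in CHT-EC were csf1rb and spi1b, which were also detected in CHT-HSPC. For csf1rb the groups overlapped, at 173 and 215 CPM in CHT-EC against 72.4 and 215 CPM in CHT-HSPC (adjusted p = 0.637). For spi1b, 180 and 151 CPM in CHT-EC stood against 10.3 and 29.0 CPM in CHT-HSPC (adjusted p = 0.0249). Erythroid genes took 1.96% and 3.63% of the counts of CHT-EC against 0.392% and 0.28% of those of CHT-HSPC, and 7 of the 14 tested were called toward CHT-EC. Of the muscle, notochord and skin genes, 6 of 24 were called toward CHT-EC, although their summed shares overlapped, and of the pronephric genes 2 of 16 were. Of the thrombocyte and stem cell genes, 7 of 14 were called toward CHT-HSPC. Of the 23 macrophage genes tested, 13 were called toward CHT-EC and 1 toward CHT-HSPC, and 11 of the 13 neutrophil genes were called toward CHT-EC. Beside these counts, 3.78% of all genes tested were called toward CHT-EC and 0.752% toward CHT-HSPC. The part of these cell types in the differences of the 8 genes was not tested. In these bulk samples fewer cells of a type and less RNA per cell cannot be told apart.

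**Figure D2:**
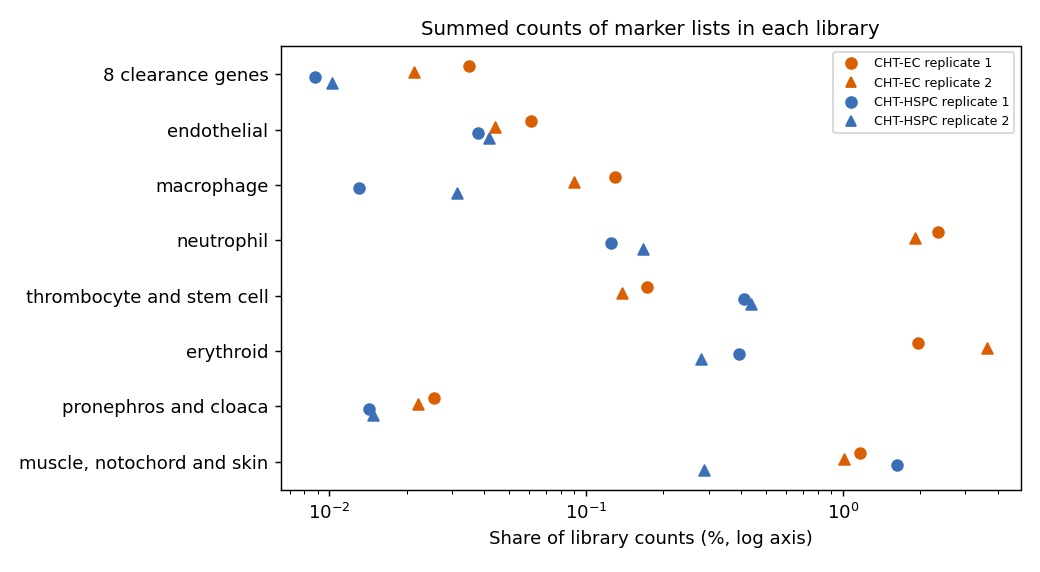
Summed counts of the 8 clearance genes and of 7 marker lists as a percentage of all counts in each library, on a log axis, with CHT-EC in orange and CHT-HSPC in blue. The 8 genes took 0.0349% and 0.0214% of the counts of CHT-EC, against 0.00877% and 0.0103% of those of CHT-HSPC. The macrophage, neutrophil, erythroid and pronephric lists also lie higher in both CHT-EC libraries. The endothelial sum is also higher in both CHT-EC libraries but lies close together in the 4 libraries. The median gene of that list was 1.98 higher in CHT-EC on the log2 scale.

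The hyaluronan scavenger receptor gene stab2 had the largest fitted difference of the 8 genes. Stab2 is a very large membrane protein that binds hyaluronan and other polyanions and marks the caudal vein in zebrafish. The gene (ENSDARG00000045748) had 2787 and 1806 counts in CHT-EC replicates 1 and 2, and 361 and 95 counts in CHT-HSPC. Scaled to library size, these were 104 and 61.4 CPM in CHT-EC against 12.2 and 2.75 CPM in CHT-HSPC, a mean of 82.9 ± 30.5 CPM against 7.46 ± 6.66 CPM (SD, n = 2 libraries each). Both CHT-EC libraries were high, and the lower of them was still above the higher CHT-HSPC library, while the 2 CHT-HSPC libraries differed from each other by 4.43-fold. The fitted difference was 11.1-fold with a 95% interval of 3.53 to 35.2, or 3.48 on the log2 scale (SE 0.70, adjusted p = 0.0432 in edgeR's quasi-likelihood test). Without CHT-EC replicate 1 the log2 difference was 3.06 and its adjusted p was 0.177, and with library totals alone the adjusted p was 0.0512. It held without each of the other libraries, with adjusted p-values of 0.0480 without CHT-EC replicate 2, 0.0093 without CHT-HSPC replicate 1 and 0.0255 without CHT-HSPC replicate 2.

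Its paralog stab1 leaned the same way with fewer counts and a wider gap between the CHT-EC libraries. Stab1, the second stabilin, shares the ligands of Stab2 in part and in mammals is also found on macrophages. The gene (ENSDARG00000076484) had 802 and 279 counts in CHT-EC against 144 and 113 counts in CHT-HSPC, or 30.1 and 9.48 CPM against 4.85 and 3.27 CPM. CHT-EC replicate 1 was 3.17-fold above CHT-EC replicate 2, which itself stood closer to the CHT-HSPC libraries than to its own replicate. The fitted difference was 4.87-fold with an interval of 1.72 to 13.8, and it missed the threshold after adjustment over all genes (log2 difference 2.28, SE 0.64, adjusted p = 0.0940). Without CHT-EC replicate 2 it passed (log2 difference 2.90, adjusted p = 0.0422), and without CHT-EC replicate 1 the log2 difference was 1.23 (adjusted p = 0.495). In DESeq2 its adjusted p was 0.0061.

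The 2 remaining carbohydrate receptors differed in how well they were measured. Lyve1b, a hyaluronan receptor of veins and lymphatics, had 99 and 14 counts in CHT-EC against 12 and 0 counts in CHT-HSPC for its gene (ENSDARG00000062483). The levels were 3.71 and 0.476 CPM in CHT-EC against 0.404 and 0 CPM in CHT-HSPC, where a count of 0 allows up to 0.0867 CPM. One library, CHT-EC replicate 1, held most of the counts, and CHT-EC replicate 2 was 2 counts above CHT-HSPC replicate 1. The log2 difference of 3.36 had an interval of −1.13 to 7.85 (SE 1.90, adjusted p = 0.332), and without CHT-EC replicate 1 it was 1.26.

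For mrc1a (ENSDARG00000102100), a mannose receptor whose promoter marks the caudal vein and lymphatics in zebrafish, there were 1002 and 765 counts in CHT-EC against 397 and 509 counts in CHT-HSPC. The levels of 37.6 and 26.0 CPM in CHT-EC were above those of 13.4 and 14.7 CPM in CHT-HSPC. The CHT-HSPC libraries lay close together, while CHT-EC replicate 1 was 1.44-fold above CHT-EC replicate 2. The fitted difference was 2.26-fold with an interval of 1.25 to 4.08 and missed the threshold (log2 difference 1.18, SE 0.36, adjusted p = 0.115). Its adjusted p was 0.0340 in DESeq2 and 0.0467 in edgeR with no filter on low counts, and the log2 difference was 0.89 to 1.43 over all alternatives. The 24 macrophage genes, summed, were also higher in both CHT-EC libraries, and their part in the difference of mrc1a and stab1 was not tested.

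The chemokine scavenger gene gpr182 was low in all 4 libraries, with 1 of them at 0 counts. Gpr182 is an atypical chemokine receptor of vascular endothelium, and in zebrafish it has been linked to blood formation. The gene (ENSDARG00000036616) had 116 and 56 counts in CHT-EC against 0 and 37 counts in CHT-HSPC, or 4.35 and 1.90 CPM against 0 and 1.07 CPM, where the count of 0 in CHT-HSPC replicate 1 allows up to 0.101 CPM. The CHT-HSPC libraries thus disagreed, one with no read and the other within 1.78-fold of CHT-EC replicate 2. The log2 difference was 2.53 with an interval of −1.33 to 6.38 (SE 1.63, adjusted p = 0.393). It passed without CHT-HSPC replicate 2 (adjusted p = 0.0364), where the lone CHT-HSPC library is at 0 counts and the fitted fold depends on the prior count.

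**Figure D3:**
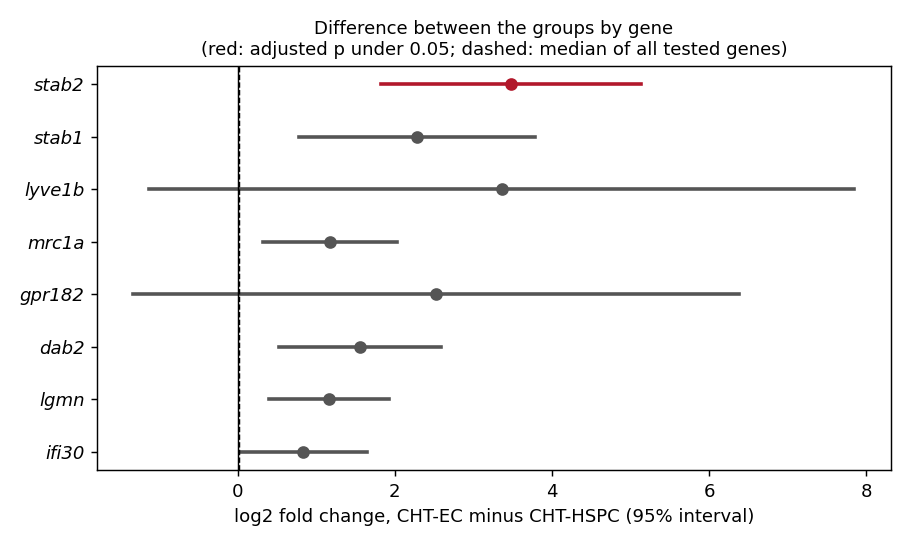
Fitted log2 difference of each gene, CHT-EC minus CHT-HSPC (horizontal axis), with its 95% interval, in red where the adjusted p was under 0.05. The intervals of lyve1b and gpr182 span 0, the other 6 lie above 0, and stab2 is the 1 gene called.

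The endocytic adaptor gene dab2 stood above CHT-HSPC in both CHT-EC libraries but missed the threshold. Dab2 binds the tails of endocytic receptors and clathrin, and in zebrafish it acts in the venous endothelium of the tail. The gene (ENSDARG00000031761) had 985 and 681 counts in CHT-EC against 227 and 441 counts in CHT-HSPC, or 36.9 and 23.1 CPM against 7.65 and 12.7 CPM. Both CHT-EC libraries lay above both CHT-HSPC libraries, although the spread within each group was of similar size. The fitted difference was 2.94-fold with an interval of 1.43 to 6.03 (log2 difference 1.56, SE 0.44, adjusted p = 0.0965). In DESeq2 the adjusted p was 0.0133, and without CHT-EC replicate 1 it was 0.418 in the edgeR test.

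A second row of the table carries the symbol DAB2 in capitals (ENSDARG00000053091), which the selection by symbol left out. It was looked at after its values had been seen. It had 1199 and 1836 counts in CHT-EC against 381 and 364 counts in CHT-HSPC, or 44.9 and 62.4 CPM against 12.8 and 10.5 CPM, and was higher in CHT-EC (log2 difference 2.2, SE 0.34, adjusted p = 0.0219). Here CHT-EC replicate 2 was the higher of the CHT-EC libraries, the reverse of dab2 and of the 7 other genes. Leaving out either CHT-EC library ended the call, with log2 differences of 2.42 without replicate 1 (adjusted p = 0.0693) and 1.96 without replicate 2 (adjusted p = 0.0726). With the 2 rows summed, an alternative chosen after seeing the data, the log2 difference was 1.94 (SE 0.28, adjusted p = 0.0184).

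The lysosomal genes lgmn and ifi30 had small differences and were plainly present in CHT-HSPC. Legumain, the product of lgmn (ENSDARG00000039150), cuts proteins after asparagine in lysosomes and activates other lysosomal proteases. It had 2705 and 1854 counts in CHT-EC against 1033 and 1329 counts in CHT-HSPC, or 101 and 63.0 CPM against 34.8 and 38.4 CPM. The CHT-HSPC libraries were close to each other, and CHT-EC replicate 1 was 1.61-fold above CHT-EC replicate 2. The fitted difference was 2.24-fold with an interval of 1.32 to 3.82 (log2 difference 1.17, SE 0.32, adjusted p = 0.0934), and the adjusted p was 0.0231 in DESeq2.

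Ifi30, a lysosomal thiol reductase that opens disulfide bonds during antigen and cargo breakdown, had the smallest difference of the 8. Its gene (ENSDARG00000056378) had 1098 and 909 counts in CHT-EC against 515 and 794 counts in CHT-HSPC, or 41.2 and 30.9 CPM against 17.4 and 23.0 CPM. The groups did not overlap, but the gap between the lower CHT-EC and the higher CHT-HSPC library was 1.35-fold. The fitted difference was 1.79-fold with an interval of 1.02 to 3.14 (log2 difference 0.84, SE 0.34, adjusted p = 0.199), and it missed the threshold in every alternative run, with adjusted p-values of 0.108 to 0.574. For both lysosomal genes the summed macrophage and neutrophil markers were higher in the same CHT-EC libraries, and their part in the differences was not tested.

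Shares within the summed counts of the 8 genes describe the make-up of the set in each library. In CHT-EC, stab2 took 29.0% and 28.4% of the summed counts of the 8 genes, against 13.4% and 2.86% in CHT-HSPC. The shares add up to a fixed sum, so a higher share of stab2 lowers those of other genes whatever their own level. Those of lgmn were 28.2% and 29.1% in the CHT-EC libraries against 38.4% and 40.1% in the CHT-HSPC libraries, those of ifi30 were 11.4% and 14.3% in the CHT-EC libraries against 19.2% and 23.9% in the CHT-HSPC libraries, and mrc1a took 10.4% and 12% of the CHT-EC sums against 14.8% and 15.3% of the CHT-HSPC sums. All 3 genes were higher in CHT-EC in CPM, so their lower shares describe the make-up and not their own levels. The 2 CHT-EC libraries had nearly the same make-up for stab2, lgmn and dab2, but not for every gene. In CHT-EC replicates 1 and 2, stab1 took 8.36% and 4.38%, and lyve1b took 1.03% and 0.22%. The kdrl counts of these libraries differed by 4.26-fold after scaling, with replicate 1 higher. Shares of 1 gene are compared across libraries here, and not between genes, whose transcript lengths were not used.

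The CHT-EC libraries differed from each other in one direction for all 8 genes. Replicate 1 was above replicate 2 by 1.33-fold for ifi30, 1.44-fold for mrc1a, 1.6-fold for dab2, 1.61-fold for lgmn, 1.70-fold for stab2, 2.28-fold for gpr182, 3.17-fold for stab1 and 7.80-fold for lyve1b. Over all genes tested the median ratio of the same libraries was 0.993, and 51.3% of genes were higher in replicate 1. The direction was not particular to the 8 genes. In CHT-EC replicates 1 and 2 the lysosomal list below took 0.277% and 0.185% of counts, and the venous and lymphatic list 0.0967% and 0.0583%. The hyaluronan, endothelial and macrophage sums were also higher in replicate 1. Those of the endocytic receptor and coat and vesicle lists were higher in replicate 2. Genes with any count numbered 23309 in CHT-EC replicate 1 and 19950 in CHT-EC replicate 2, although replicate 2 had the larger total (29684676 against 27514202 counts). The part of this in the gaps between the replicates was not tested. The CHT-HSPC libraries showed no shared direction, with replicate 1 above for stab1, stab2 and lyve1b, and replicate 2 above for mrc1a, dab2, gpr182, lgmn and ifi30.

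**Figure D4:**
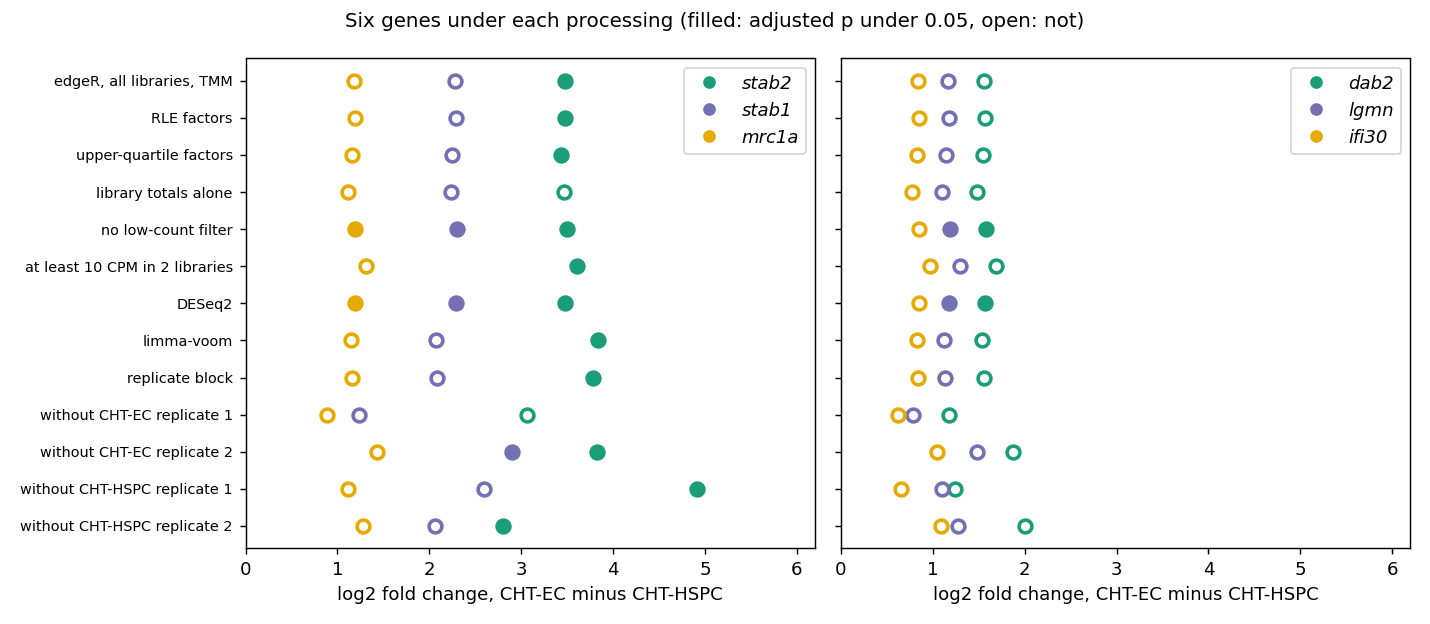
Log2 fold change, CHT-EC minus CHT-HSPC (horizontal axes), of the 6 genes with intervals above 0 under the main fit and each alternative processing (rows), filled where the adjusted p was under 0.05 and open where it was not. All points lie on the CHT-EC side, stab2 stays furthest to the right, and the points move left without CHT-EC replicate 1, where none is filled.

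Paralogs of the receptors were looked at as well, a choice made after their values had been seen. The mannose receptor paralog mrc1b (ENSDARG00000038822) had 676 and 378 counts in CHT-EC against 101 and 347 counts in CHT-HSPC (log2 difference 1.5, interval 0.02 to 2.99, adjusted p = 0.205). The paralog lyve1a (ENSDARG00000075833) had 89 and 49 counts in CHT-EC against 111 and 0 counts in CHT-HSPC, so its groups overlapped (adjusted p = 0.917). Neither passed the edgeR test.

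Of 24 endocytic receptor genes tested outside the 8, mrc1b and lyve1a among them, 1 was called toward CHT-EC and none toward CHT-HSPC. The median log2 difference was 0.45, and the 4.17% called toward CHT-EC was near the share over all genes. At an unadjusted p under 0.05, 5 (20.8%, against 14.6% of all genes) were toward CHT-EC and 1 toward CHT-HSPC. DESeq2 called 3 and 1, and placed 10.8% of all genes higher in CHT-EC. The gene called in the main fit was marco (ENSDARG00000059294), a class A scavenger receptor of macrophages that also stands in the macrophage list, with 3327 and 1417 counts in CHT-EC against 11 and 90 counts in CHT-HSPC (log2 difference 5.84, SE 0.94, adjusted p = 0.0244). The most abundant receptors were the transferrin receptors tfr1a (341 ± 210 CPM in CHT-EC against 298 ± 9.21 CPM in CHT-HSPC, SD, n = 2) and tfr1b (161 ± 82.1 and 147 ± 0.0939 CPM), and the low density lipoprotein receptor ldlrb (118 ± 19.9 and 52.1 ± 36.6 CPM). None of these 3 passed (adjusted p = 0.828, 0.861 and 0.203).

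Of 44 genes of the clathrin coat and of vesicle formation tested, 2 were higher in CHT-EC and none in CHT-HSPC (12 and 2 at an unadjusted p under 0.05, and 6 and 1 in DESeq2), with a median of 0.12. The 2 make up 4.55% of the list, near the share of all genes called toward CHT-EC, and the 12 make up 27.3%, against 14.6% of all genes. DESeq2 placed 10.8% of all genes higher in CHT-EC. The 2 were snx18a (ENSDARG00000067713), a sorting nexin that bends membranes, at 162 ± 30.9 CPM in CHT-EC against 21.7 ± 6.39 CPM in CHT-HSPC (log2 difference 2.89, SE 0.34, adjusted p = 0.0117), and cav2 (ENSDARG00000052000), a caveolin, at 17.6 ± 14.9 and 0.841 ± 0.283 CPM (log2 difference 4.37, SE 0.81, adjusted p = 0.0354). The clathrin heavy chain gene cltca, the most abundant of the list, stood at 514 ± 10.4 CPM in CHT-EC against 490 ± 54.1 CPM in CHT-HSPC (adjusted p = 0.899), with a log2 difference of 0.07 that was −0.04 without CHT-HSPC replicate 1. The adaptor subunit genes ap2m1a (402 ± 104 and 223 ± 39.0 CPM) and ap2a1 (255 ± 40.7 and 303 ± 6.23 CPM) did not pass either (adjusted p = 0.141 and 0.588).

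Lysosomal proteases, cystatins and lysosomal membrane genes leaned toward CHT-EC together with lgmn and ifi30. Of 22 tested, 6 (27.3%, against 3.78% of all genes) were called toward CHT-EC and none toward CHT-HSPC. At an unadjusted p under 0.05, 14 (63.6%, against 14.6% of all genes) were toward CHT-EC and 0 toward CHT-HSPC. A positive difference was found for 20, and the median was 1.23. The list was chosen with earlier results of these data known, so these shares are description only. The 6 were 4 cathepsins, the cystatin cst14b.1 (log2 difference 2.63), which belongs to a family of cathepsin inhibitors, and the lysosomal tetraspanin cd63 (1.71). Among the cathepsins, ctsl.1 (ENSDARG00000003902) was at 59.5 ± 14.3 CPM in CHT-EC against 1.97 ± 1.31 CPM in CHT-HSPC (log2 difference 4.92, SE 0.58, adjusted p = 0.0117), and ctsba (ENSDARG00000055120) was at 304 ± 95 and 91.8 ± 3.35 CPM (log2 difference 1.73, SE 0.30, adjusted p = 0.0299). The others were ctsc (1.86), which activates the proteases of myeloid granules, and ctsz (1.80). The abundant genes psap (429 ± 109 CPM in CHT-EC against 265 ± 21.6 CPM in CHT-HSPC), a source of saposins, and ctsla (294 ± 127 and 115 ± 57.6 CPM) did not pass (adjusted p = 0.185 and 0.132). The summed neutrophil and macrophage markers moved with these genes, and their part was not tested. The genes cd74a and cd74b stand in both this list and the macrophage list.

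Among 22 genes of hyaluronan synthesis, binding and breakdown, 1 (4.55%, near the share of all genes) was higher in CHT-EC and none in CHT-HSPC, with a median of 0.82. At an unadjusted p under 0.05, 8 (36.4%, against 14.6% of all genes) were toward CHT-EC and 1 toward CHT-HSPC. DESeq2 called 7 and 1, and placed 10.8% of all genes higher in CHT-EC. These shares are description only. The gene called in the main fit was hyal3 (ENSDARG00000036818), of the hyaluronidase family, with 672 and 812 counts in CHT-EC against 66 and 88 counts in CHT-HSPC (log2 difference 3.47, SE 0.42, adjusted p = 0.0125). The abundant members vcanb, a versican that binds hyaluronan, hmmr, a hyaluronan-binding protein of the mitotic spindle, and hexb, a lysosomal hexosaminidase, had log2 differences of 0.64, −0.58 and 0.67 and did not pass (adjusted p = 0.626, 0.268 and 0.240). That of vcanb was −0.54 without CHT-EC replicate 1.

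The 31 venous and lymphatic identity genes tested had a median of 1.42. At an unadjusted p under 0.05, 12 (38.7%, against 14.6% of all genes) were toward CHT-EC and 1 toward CHT-HSPC. After adjustment, 5 genes (16.1%, against 3.78% of all genes) were called toward CHT-EC and none toward CHT-HSPC. They included the venous orphan nuclear receptor genes nr2f2 (ENSDARG00000040926), with 698 and 855 counts in CHT-EC against 215 and 127 counts in CHT-HSPC (log2 difference 2.34, SE 0.47, adjusted p = 0.0415), and nr2f1a (ENSDARG00000052695), with 868 and 943 counts against 243 and 125 (log2 difference 2.45, SE 0.49, adjusted p = 0.0410). The helix-loop-helix factor tfec (ENSDARG00000098745), known in zebrafish for its role in the CHT vascular niche, had 2110 and 1328 counts against 128 and 94 (log2 difference 4.14, SE 0.46, adjusted p = 0.0103). The others were f8 (3.56), coagulation factor VIII, which in mammals is made by sinusoidal endothelium, and mafba (3.68), a transcription factor of lymphatic endothelium and macrophages. Of the 5, nr2f2 and nr2f1a had about the same level in both CHT-EC libraries, at 26.2 and 29.1 CPM and 32.5 and 32 CPM. The others were higher in CHT-EC replicate 1, as the 8 clearance genes were, by 1.75-fold for tfec, 2.89-fold for f8 and 3.04-fold for mafba. The abundant stem cell and endothelial regulator lmo2 did not pass (log2 difference −0.54, adjusted p = 0.427). This list too was chosen with earlier results of these data known, so its share of calls is description only.

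Most list calls were lost without CHT-EC replicate 1, as that of stab2 was, and most of the log2 differences became smaller as well. Of the 15 genes called in the 5 lists, tfec alone was called without that library (adjusted p = 0.0491), and the other 14 had adjusted p-values of 0.0539 to 0.252. In that fit the calls over all genes dropped to 121, against 861 with all libraries. The log2 difference was 3.53 for hyal3, 2.43 for nr2f2 and 2.46 for nr2f1a without the library, about as large as with it. It was lower for every other gene called in the 5 lists. The drop was small for ctsl.1 (4.66, from 4.92 with all libraries). It was largest for cav2 (3.05, from 4.37), mafba (2.68, from 3.68), f8 (2.61, from 3.56) and marco (4.99, from 5.84). Without CHT-EC replicate 2, 13 of the 15 were called, and nr2f2 (0.115) and nr2f1a (0.0954) were not. Without CHT-HSPC replicate 1, 10 were called, and cav2, ctsba, ctsc, ctsz and cd63 were not (0.0552 to 0.0933). Without CHT-HSPC replicate 2, 10 were called, and ctsc, ctsz, nr2f2, nr2f1a and mafba were not (0.0502 to 0.0714).

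**Figure D5:**
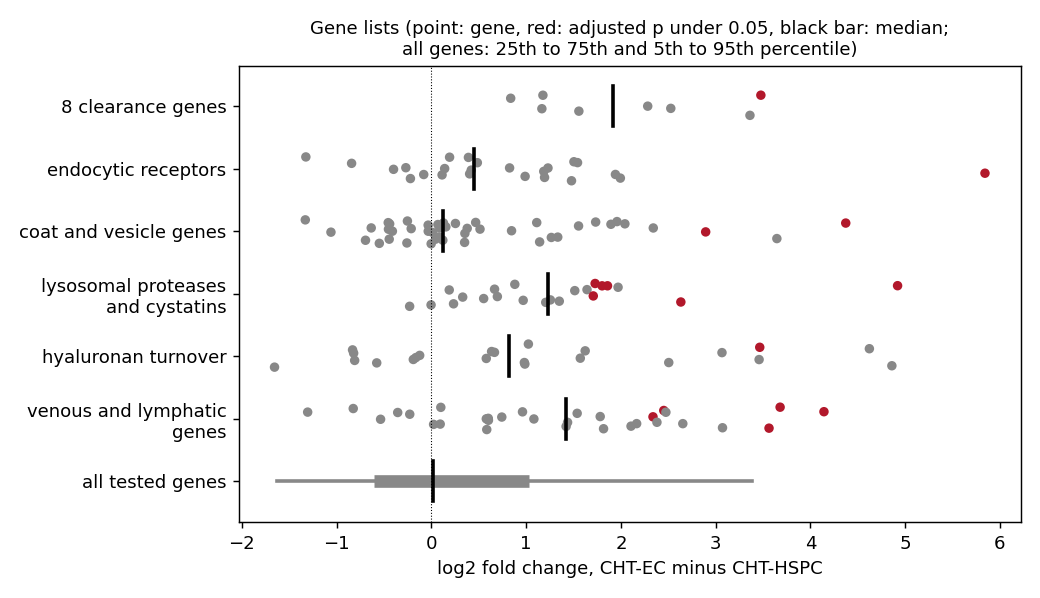
Log2 fold change, CHT-EC minus CHT-HSPC (horizontal axis), of the 8 clearance genes and of each tested gene in the 5 lists, in red where the adjusted p was under 0.05, with a black bar at each median. The medians were 1.92 for the 8 genes, 0.45, 0.12, 1.23, 0.82 and 1.42 for the lists from top to bottom, and 0.02 for all tested genes, whose percentile ranges are drawn at the foot.

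The genes whose profile over the 4 libraries was most like that of stab2 were not members of these lists. Likeness was the Euclidean distance between log2(CPM + 0.5) values, each gene centred on its own mean, among 8513 other genes with a symbol and at least 10 CPM on average in CHT-EC. The nearest were cyt1l (distance 0.399), a type I keratin gene of the skin that also stands in the muscle, notochord and skin list, ism1 (0.438), which encodes the secreted protein isthmin, and cx28.1 (0.549), a connexin. The gene cyt1l had 8663 and 7271 counts in CHT-EC against 1397 and 493 counts in CHT-HSPC, and those of ism1 were 671 and 372 against 92 and 4. Of the other 7 clearance genes, stab1 came nearest to stab2 at a distance of 2.07, with 415 of the 8513 genes closer. A profile of 4 libraries has few features, so many genes resemble it.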

How the data were processed

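For 4 libraries of 2 sorted populations, the authors deposited counts by Ensembl gene. The counts were taken as not normalised, being whole numbers with different totals (27514202 to 32268535). Reads were handled with TopHat2 and HTSeq 0.6.1 on the build GRCz10, per the submitters' processing notes. Annotation release, strand setting and treatment of shared reads are not given in the sources used here, so counts of overlapping, antisense or near-identical genes are uncertain. Per the labels' protocols, the NEBNext Ultra kit was used, which in its standard form does not mark strand. Columns named HSC were matched to the HSPC samples by title and replicate number.

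Counts were filtered with filterByExpr (minimum count 10, minimum total 15), scaled by TMM (factors 0.968 to 1.07) and tested for CHT-EC against CHT-HSPC with edgeR 4.0.16 in R 4.3.3 (glmQLFit and glmQLFTest, no block). Differences are CHT-EC minus CHT-HSPC on the log2 scale, the SE is the absolute value divided by the square root of F, and 95% intervals use the fitted degrees of freedom. DESeq2 1.42.0, limma 3.58.1 (voom), other scalings, filters, a replicate block and leaving out each library were alternatives. The fit was also run on simulated counts, but the outcome is not given here and lends no weight to the calls. Floors (3 counts, 0.0867 to 0.112 CPM) cover counting error only, since reads carried no molecular identifiers. The biological coefficient of variation was 0.540.

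The 8 genes and all lists were chosen with earlier results of these data known. Named from the lists were genes past the threshold and the 3 with the highest mean CPM. All 8 identifiers matched the name table, where 4 have another spelling (MRC1, GPR182, LGMN and ifi30a). Sequences and coordinates were not used here.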

Additional observations from a re-analysis of the deposited data

How the results depend on the processing

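No alternative turned the direction of any of the 8 genes, which says little, since both CHT-EC libraries were above both CHT-HSPC libraries for each of them. The number of these genes called was 1 in the main fit, 5 with DESeq2, 5 without the low-count filter (8.5% of all genes higher in CHT-EC), 0 with library totals alone and 0 to 2 with 1 library left out. Over all genes, 861 were called, against 2821 with DESeq2, 2931 without the filter, 574 with totals alone, 938 with limma-voom (233 in place of 143 higher in CHT-HSPC) and 121 to 1003 with 1 library left out. In the order DESeq2, no filter and 1 library left out, calls were 4, 5 and 0 to 3 for endocytic receptors (1 in the main fit), 7, 10 and 0 to 4 for coat and vesicle genes (2, and 1 with limma-voom), 11, 12 and 0 to 6 for lysosomal genes (6), 8, 8 and 0 to 4 for hyaluronan genes (1, and 2 with at least 10 CPM in 2 libraries), and 8, 8 and 1 to 5 for venous and lymphatic genes (5, and 3 with totals alone). In the main fit these lists held 24, 44, 22, 22 and 31 tested genes. Over all genes, the share called toward CHT-EC also rose, from 3.78% in the main fit to 10.8% with DESeq2 and 8.5% without the filter. The filter of at least 10 CPM in 2 libraries left 13 hyaluronan genes tested. Over all genes it left 9332, of which 912 were called toward CHT-EC, also a higher share than in the main fit. The higher list counts in those settings are therefore no result about the lists alone. With at least 10 CPM in 2 libraries, stab1, lyve1b and gpr182 were not tested. Fits with 1 library left out assume that the lone library varies like the other group. With the replicate number as a block, 1 of the 8 genes was called (stab2, adjusted p = 0.0066), hyaluronan calls were 3 and the other counts stayed within 1.5 times. Deviations of same-numbered libraries had a correlation of 0.0173 over 19016 genes. With 2 libraries in each group, this cannot show whether same-numbered libraries were paired. With 1 library left out, some log2 differences changed sign, ranging from −0.62 to 0.72 for tfr1a and −0.49 to 0.59 for tfr1b (negative without CHT-EC replicate 2), −0.038 to 0.22 for cltca (negative without CHT-HSPC replicate 1), −0.54 to 1.70 for vcanb (negative without CHT-EC replicate 1) and −0.54 to 9.24 for lyve1a (negative without CHT-EC replicate 1, at −0.13, or CHT-HSPC replicate 2). The cause of these changes was not tested. At this depth a count of 0 allows up to 0.0867 CPM for lyve1b and 0.101 CPM for gpr182, and the replicates of both differed by more than that.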

Other observations

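Some genes had no read in 1 library and at least 10 counts in its replicate, lyve1b and gpr182 among them. The check was made after their values had been seen. CHT-HSPC replicate 1 had 0 counts for 737 of the 17477 tested genes with at least 10 counts in CHT-HSPC replicate 2 (4.22%), gpr182 among them. CHT-HSPC replicate 2 had 0 counts for 252 of 16949 such genes (1.49%), lyve1b among them. In CHT-EC the numbers were 59 of 17766 (0.332%) for replicate 1 and 536 of 18152 (2.95%) for replicate 2, and none of the 8 genes was among these.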
